A study of Rattus norvegicus with 24 samples.

Results

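The genes described here encode receptors for the neurotrophins and for the glial cell line-derived neurotrophic factor (GDNF) family of ligands. Of 7 genes named for this family, 6 had a row in the count tables of 32881 genes shared by all libraries: Ntrk2, Ntrk3, Ngfr, Ret, Gfra2 and Gfra3. The seventh, Gfra1, was not analysed here. The genes were chosen by name, with earlier results of these data known, and were followed in 1433 dorsal root ganglion (DRG) neurons.

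Neurotrophins are secreted by the skin, muscle and other targets of sensory axons and act on receptor tyrosine kinases of the Trk family. Ntrk2 encodes TrkB, the receptor for brain-derived neurotrophic factor (BDNF), and Ntrk3 encodes TrkC, the receptor for neurotrophin-3. Ngfr encodes the p75 receptor, which binds every neurotrophin and works together with the Trk receptors. Ret encodes the shared signalling receptor of the GDNF family, which needs a membrane-anchored co-receptor to bind a ligand. Gfra2 encodes the co-receptor for neurturin, and Gfra3 encodes the co-receptor for artemin. In the DRG, TrkB and TrkC are known from large myelinated touch and stretch neurons, Ret and Gfra2 from nonpeptidergic nociceptors, and Gfra3 from peptidergic nociceptors.

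All animals were male Sprague-Dawley (SD) rats, and the neurons came from the L4 and L5 DRG on the operated side. In spared nerve crush (SNC) surgery the tibial and common peroneal branches of the left sciatic nerve were crushed and the sural branch was left intact, whereas in sham surgery the nerve was exposed without injury. Dyes placed in the branches 2 weeks earlier marked the neurons, which were picked one by one with a mouth pipette, and the labels give the numbers of directly and indirectly injured cells in each library but not for each cell. These labelled neurons came from 4 sham samples, 4 samples at 1 day, 3 at 3 days and 5 at 7 days after SNC. Samples 17-1 and 17-2 at 1 day, 17-3 at 3 days, and 19-1 and 19-2 at 7 days all share a date of reverse transcription. These count as separate samples below, except in an alternative that merged 17-1 with 17-2 and 19-1 with 19-2, each pair as one preparation. Sham sample 4 and 7-day sample 8 share another date, as do sham sample 10 and 7-day sample 9. Dates were not used as blocks in any fit. A further 7 sham samples, taken at 0, 1, 3 and 7 days after surgery, were described in the labels as new libraries and are called the added sham samples. Neurons of several rats were collected at each time point and no label ties a sample to an animal. P-values between groups of samples therefore measure the spread between these samples, which may be partly technical. Where cell classes of the same samples were compared, p-values measure how the difference between classes varied over samples, which may also be partly technical.

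In total 930 of 936 labelled neurons and 503 of 528 added neurons passed the filters of at least 500 genes, at least 1000 unique molecular identifiers (UMIs) and under 5% mitochondrial UMIs. Median depth was 239286 UMIs per labelled neuron and 340145 per added neuron, and summed UMIs per sample ranged from 4002503 to 40732975. Levels are UMIs per 1000000 summed UMIs of a sample (CPM), and a cell was called positive for a gene at 20 CPM or more. UMIs mark the 3′ end of each transcript, so levels were compared between samples and cell groups for one gene at a time. The summed level of 12 glial marker genes ranged from 847 to 2467 CPM over the 23 samples and overlapped between all groups. The endothelial markers, summed, were at 0.44 to 1.91 CPM in labelled sham and at 3.24 to 16.9 CPM in added sham samples, and the fibroblast markers had medians of 6.58 and 21.4 CPM. Injury-induced genes were present in the labelled sham neurons and nearly absent from the added sham neurons. Sprr1a was at 65.3 to 282 CPM in the labelled sham samples and at 0 to 0.22 CPM in the added ones, Gal at 606 to 2323 against 1.71 to 22.2 CPM, and Atf3 at 364 to 950 against 76.2 to 198 CPM.

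Both Trk genes had their highest mean level in a single cluster of neurons with neurofilament (NF) markers, in labelled and in added neurons. Labelled and added neurons were clustered separately, without the receptor genes, into 10 and 8 clusters, and the comparison of clusters is a description with no test. In labelled neurons Ntrk2 was at 106.7 ± 62.8 CPM (SD, n = 12 samples) in the NF-like cluster with Shox2 and Pvalb among its leading genes, where 67.0% of cells were positive. The other NF-like cluster, led by Nppa and S100a16, held 16.5 ± 10.5 CPM of Ntrk2 (SD, n = 15). Ntrk2 was also at 93.2 ± 34.8 CPM (SD, n = 7) in a small cluster of 41 cells in which 9 of 12 glial markers were high, and the part of glial RNA in that level was not tested. The 7 remaining clusters had mean Ntrk2 levels between 2.16 and 19.3 CPM. Added neurons gave the same top pair for this TrkB gene, with 196.7 ± 58.2 CPM (SD, n = 5) in the NF-like cluster and 190.6 ± 16.3 CPM (SD, n = 3) in a cluster with 10 of 12 glial markers high, which differed by less than the spread over samples.

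Ntrk3, the TrkC gene, was at 144.8 ± 53.7 CPM (SD, n = 12) in the Shox2 and Pvalb cluster, where 90.1% of cells were positive, and at 62.1 ± 40.4 CPM (SD, n = 15) in the Nppa cluster. The other labelled clusters had mean Ntrk3 levels from 19.2 to 45.6 CPM, so the third place, held by the TRPM8-like cluster, was within the spread of the second. Ntrk3-positive cells were not confined to NF-like clusters. They made up 48.2% of the Nppa cluster, 57.1% of the TRPM8-like cluster and 52.2% of the PEP3-like cluster of peptidergic (PEP) neurons. In added neurons Ntrk3 was at 202.0 ± 32.4 CPM (SD, n = 5) in the NF-like cluster, and the gap to the next, the glial-gene-high cluster at 73.0 ± 47.5 CPM (SD, n = 3), was larger than the sum of both SDs. Every other added cluster was at or below 44.9 CPM.

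Ngfr, the p75 gene, was found in nearly every neuron. It was positive in 96.3% of labelled and 99.4% of added neurons. Its level still varied between types. In labelled neurons Ngfr was highest in the Nppa NF-like cluster at 484.8 ± 96.9 CPM (SD, n = 15) and in the PEP3-like cluster at 428.0 ± 51.1 CPM (SD, n = 11). It was lowest in the TRPM8-like cluster at 114.5 ± 63.7 CPM (SD, n = 5). In added neurons the PEP-like cluster led with 764 ± 122 CPM (SD, n = 6), and the NP-like cluster of nonpeptidergic neurons was lowest with 130.7 ± 47.2 CPM (SD, n = 7).

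Ret and Gfra2 were highest in the same cluster, but Ret was also high in clusters with little Gfra2. In labelled cells Ret was at 307 ± 166 CPM (SD, n = 8) in the NP-like cluster, where all 60 cells were positive, and Gfra2 was at 130 ± 125 CPM (SD, n = 8) there, with 55% of cells positive. The wide SD of Gfra2 covered a range over samples from 20.5 to 325 CPM. The second-highest cluster for Ret was the SST-like cluster of somatostatin neurons led by Sst, at 213.8 ± 90.2 CPM (SD, n = 8). There Gfra2 was at 2.75 ± 2.55 CPM (SD, n = 8), with 0% of cells positive. The other SST-like cluster, led by Ifitm1, held 101.9 ± 34.8 CPM (SD, n = 12) of Ret. For Gfra2 the second-highest was the TRPM8-like cluster, at 71.1 ± 35.4 CPM (SD, n = 5). Neither second place lay beyond the spread of the first. In the added neurons 3 clusters were positive for Gfra2 in every cell: the NP-like cluster at 453 ± 52.9 CPM (SD, n = 7), an unnamed cluster led by Cav1 at 373.0 ± 38.0 CPM (SD, n = 7), and a small unnamed cluster of 17 cells led by Cd7 and Nmu at 748 ± 147 CPM (SD, n = 4). All other added clusters held 36.8 CPM of Gfra2 or less. The same Cd7 cluster had the highest Ret level, 862 ± 261 CPM (SD, n = 4), within the spread of the NP-like cluster at 654.8 ± 58.5 CPM (SD, n = 7). An unnamed added cluster led by Rbp2 held 565.1 ± 49.6 CPM (SD, n = 6) of Ret and 29.3 ± 27.3 CPM of Gfra2. The added SST-like cluster held 482.3 ± 42.2 CPM (SD, n = 6) of Ret and 11.2 ± 7.08 CPM of Gfra2.

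Gfra3, the artemin co-receptor gene, was at 669.8 ± 83.4 CPM (SD, n = 16) in the PEP1-like cluster of labelled neurons. In that cluster 4 of 15 PEP markers and 5 PEP1 subset markers were high, against 12 of 15 PEP markers in the PEP3-like cluster. Gfra3 was at 669.0 ± 65.2 CPM (SD, n = 16) in an unnamed cluster of 195 cells with Anxa1 among its leading genes. The SST-like cluster led by Ifitm1, with 3 of 7 SST markers high, held 641.6 ± 78.7 CPM (SD, n = 12), so the 3 leading clusters did not differ beyond their spread. In the SST-like cluster led by Sst, Gfra3 was at 274.5 ± 92.0 CPM (SD, n = 8). The lowest labelled level was 103.7 ± 49.5 CPM (SD, n = 12), in the Shox2 and Pvalb NF-like cluster, yet 96.7% of its cells were positive. In added neurons Gfra3 peaked at 307.3 ± 42.8 CPM (SD, n = 7) in the Cav1 cluster. The added NF-like cluster held 19.6 ± 9.68 CPM (SD, n = 5) of Gfra3 with 45.9% of cells positive, and the Cd7 cluster held 9.76 ± 5.84 CPM (SD, n = 4).

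**Figure D1:**
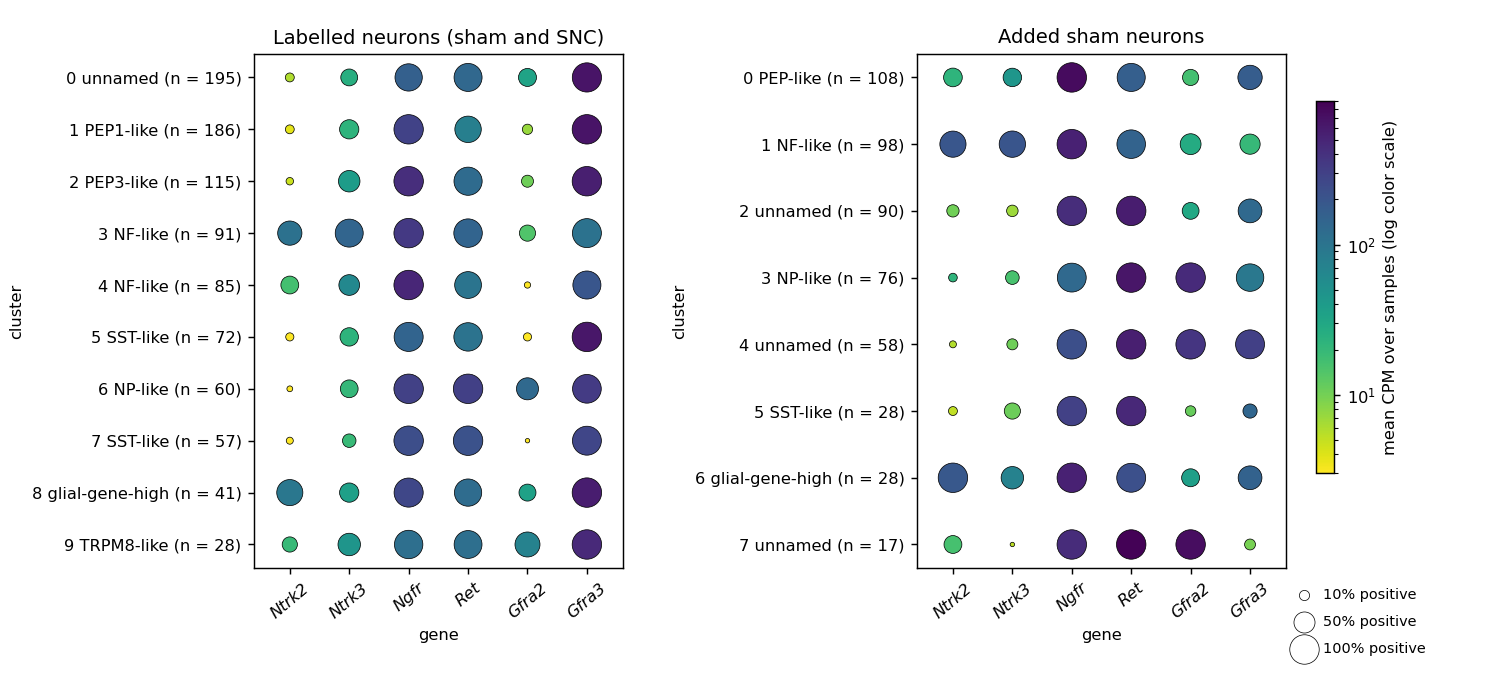
Dot plots of the receptor genes (x axis) by cluster (y axis, with the number of cells) in labelled neurons (left) and added sham neurons (right), with color for mean CPM over samples on a log scale and dot area rising with the share of positive cells. Ntrk2 and Ntrk3 were highest in the Shox2-led NF-like cluster of each set, and Gfra2 and Ret in NP-like and unnamed added clusters. Gfra3 was high in most labelled clusters but low in the added NF-like cluster (19.6 CPM).

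Single neurons carried several of these receptors at once. Ntrk3 was found more often in cells with Ntrk2 than in cells without it. In labelled neurons 60.4% of 169 Ntrk2-positive cells were Ntrk3-positive, against 40.9% of Ntrk2-negative cells, and the share was higher in 14 of the 15 samples that could be compared. Seen from the other gene, 24.7% of 413 Ntrk3-positive cells were Ntrk2-positive, against 13.0% of Ntrk3-negative cells. In added neurons the shares were 54.5% of 176 Ntrk2-positive cells and 24.8% of the Ntrk2-negative cells, higher in 4 of 5 samples. Of the labelled neurons with both Trk genes, 52 (51.0%) lay in the Shox2 and Pvalb NF-like cluster and 14 in the other NF-like cluster. The share of labelled neurons with both Trk genes was 11.6% in sham and 11.3%, 10.1% and 10.8% at 1, 3 and 7 days after SNC. In the added samples it ranged from 0% to 57.0%, the highest value coming from the only sample taken at 3 days. That sample also had the highest share of NF-like neurons among the added samples, 51.2%. The NF-like cluster held 59.4% of the added neurons with both Trk genes, and the part of neuron type in this range was not tested.

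Gfra2 was rarely found without Ret, the receptor through which it signals. In labelled neurons 195 of 204 Gfra2-positive cells (95.6%) were Ret-positive, against 87.3% of Gfra2-negative cells (83.0% and 77.4% after thinning to 20000 UMIs per cell). In added neurons all 271 Gfra2-positive cells were Ret-positive, against 92.7% of the rest. Because Ret was positive in most neurons, the reverse view separates the cells further: 23.5% of labelled Ret-positive cells had Gfra2, against 8.91% of Ret-negative cells, higher in 11 of 12 samples. After thinning to 20000 UMIs per cell these shares were 19.0% and 14.1%, higher in 11 of 15 samples, a smaller difference. The pairing of co-receptors with Ret differed between labelled and added neurons. Ret with Gfra3 but without Gfra2 was the pattern of 67.4% of labelled and 20.5% of added neurons. Ret with both co-receptors was seen in 20.5% of labelled and 42.9% of added neurons, and Ret with neither in 0.75% and 22.3%.

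The co-receptor genes Gfra2 and Gfra3 overlapped differently in the libraries. In added neurons 79.7% of Gfra2-positive cells had Gfra3, against 46.6% of Gfra2-negative cells, and the share was higher in 7 of 7 samples. In labelled neurons nearly all cells had Gfra3, so the corresponding shares were 98.0% and 97.9%. Positive shares depend on depth. After every cell was thinned to 20000 UMIs, which left out 44 labelled and 10 added cells, Gfra2 was found in 17.9% of labelled and 51.5% of added neurons (21.9% and 53.9% at 20 CPM without thinning), and Gfra3 in 94.4% and 59.6% (98.0% and 64.4% without thinning).

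**Figure D2:**
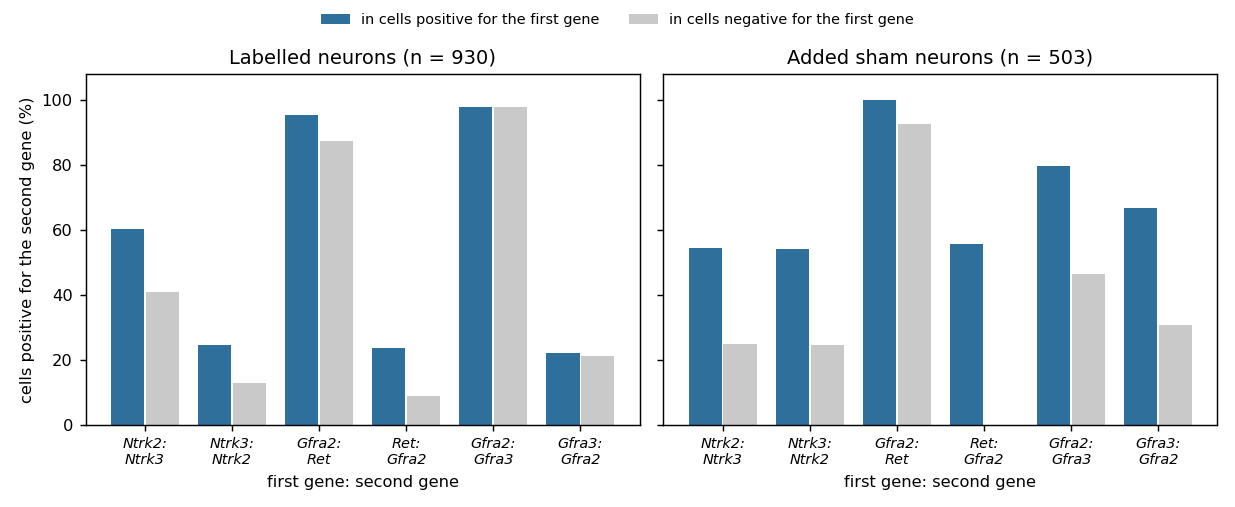
Bars show the percent of cells positive for the second gene of each pair among cells positive (blue) or negative (gray) for the first gene, in 930 labelled neurons (left) and 503 added sham neurons (right), with cells of all samples pooled. Ntrk2 and Ntrk3 occurred together (60.4% against 40.9% of labelled cells), and Gfra2 was found in 55.8% of the 486 added Ret-positive cells and in none of the few Ret-negative ones at 20 CPM (54.7% and 18.6% after thinning).

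Across cells within each sample, the genes whose levels followed each receptor most closely differed from receptor to receptor. The likeness was the Pearson correlation of log2(CPM + 10) over the cells of a sample, averaged over 23 samples and computed for 10228 genes. It is a description, because cells of one sample share library, depth and type. S1pr3 (0.58), Maob (0.55) and Pcdh7 (0.55) were most like Ntrk2, and Akain1 (0.47) and AABR07014550.1 (0.46) were among the 3 genes most like Ntrk3. For Ngfr the nearest genes were Fgf1 (0.57), Scg2 (0.51) and Tomm5 (0.51), and for Ret they were Parm1 (0.54), Ncald (0.52) and Tspan7 (0.49). Cdh11 (0.49), Chrne (0.48) and Alk (0.48) were nearest to Gfra2, and Emp3 (0.63), Dusp26 (0.60) and Carhsp1 (0.55) to Gfra3. Among the receptors themselves Ret and Gfra2 had the highest mean correlation, 0.34, and it was positive in every sample, with a range from 0.14 to 0.54.

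The first comparison asked whether receptor levels changed after SNC relative to labelled sham. Each SNC sum pooled neurons labelled as directly and as indirectly injured, so a change in the directly injured neurons alone was not tested. None of the 6 receptor genes passed edgeR's quasi-likelihood test with Benjamini-Hochberg adjustment at 1, 3 or 7 days, with 0 at an unadjusted p under 0.05 and 0 called by DESeq2. Among all 14239 genes tested the count was 0 as well at each time (0.0%), with 1243, 594 and 476 genes at an unadjusted p under 0.05, and DESeq2 called 17, 1 and 0 genes. The injury genes Sprr1a, Atf3, Gal, Sox11, Gap43 and Jun did not pass either, and the labelled sham samples carried them already, as given above.

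Gfra3 was at 699, 392, 451 and 400 CPM in sham samples Xin, 4, 10 and 18. It was at 358, 420, 422 and 392 CPM in the samples taken at 1 day. The 3 samples at 3 days held 406, 412 and 331 CPM. The value of sample Xin stood above every SNC sample, and the other sham values lay among them. The log2 fold change of Gfra3 was −0.37 (SE 0.20, adjusted p = 0.62) at 1 day, −0.39 (SE 0.22, adjusted p = 0.97) at 3 days and −0.25 (SE 0.19, adjusted p = 0.9998) at 7 days, where the 5 samples ranged from 315 to 529 CPM. Without sample Xin the differences were −0.09, −0.10 and 0.04.

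Ngfr was at 149, 285, 288 and 371 CPM in sham samples Xin, 4, 10 and 18. At 1 day after SNC it was at 346, 357, 349 and 397 CPM, of which 3 values lay below the highest sham value. At 3 days the values were 322, 293 and 308 CPM, and at 7 days they ranged from 259 to 340 CPM. The groups overlapped at every time. The log2 fold changes of Ngfr were 0.35 (SE 0.17, adjusted p = 0.57), 0.16 (SE 0.18, adjusted p = 0.98) and 0.04 (SE 0.16, adjusted p = 0.9998) at 1, 3 and 7 days. Without sample Xin, the lowest in Ngfr, they were 0.17, −0.02 and −0.14.

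The remaining receptors varied between samples by more than the groups differed. Ntrk2 ranged from 11.6 to 39.8 CPM in sham and from 2.83 to 64.1 CPM after SNC, with log2 fold changes of 0.49, 0.41 and 0.54. Its SE of 0.59 to 0.66 left an interval of −0.72 to 1.69 at 1 day, wide enough to hold both a fall and a rise. Ntrk3 ranged from 28.7 to 84.3 CPM in sham and from 30.5 to 108.9 CPM after SNC (log2 fold changes 0.06, 0.12 and 0.24). Ret ranged from 96.8 to 195.9 CPM in sham and from 104.9 to 226.0 CPM after SNC (0.30, 0.11 and −0.02). Gfra2 ranged from 15.6 to 35.2 CPM in sham and from 8.56 to 50.9 CPM after SNC (−0.38, −0.02 and −0.36). Reverse transcription was done in an earlier year for 3 sham samples and 3 samples at 7 days and in the following year for the rest of the labelled samples. With the year as a term none of the 6 receptors passed at any time, and within the earlier year, where only the 7-day comparison was possible, Ntrk2 differed by 1.48 (SE 0.42, unadjusted p = 0.0080), Gfra2 by −0.79, Gfra3 by −0.30, Ret by 0.19, Ngfr by 0.15 and Ntrk3 by −0.00097, none of which passed edgeR's test after adjustment (adjusted p = 0.997 or higher, 0 genes called and 396 at an unadjusted p under 0.05).

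**Figure D3:**
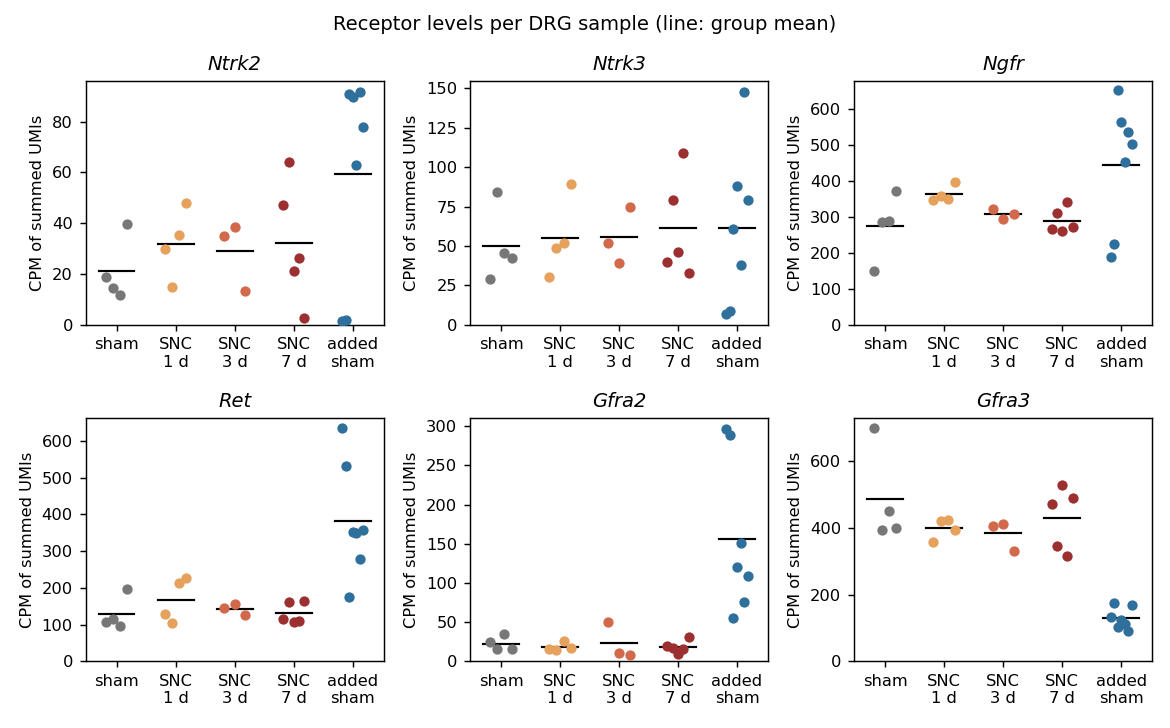
CPM of summed UMIs of each receptor gene (y axis, linear) for each DRG sample (points) in labelled sham, SNC at 1, 3 and 7 days and added sham (x axis), with a line at the group mean. Labelled sham and SNC samples overlapped for each gene, while every added sham sample was lower in Gfra3 and higher in Gfra2 than every labelled sham sample.

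A pair of libraries prepared at 7 days differed in the labelled injury state of the cells that were picked. The study's text names DiO as the dye of the crushed branches in its results and DiI in its methods. Sample 19-1 was labelled as holding 20 directly and 4 indirectly injured neurons, and sample 19-2 as holding 4 and 20. The injury genes ran against these labels: all 6 were lower in sample 19-1, with Sprr1a at 54.9 against 131 CPM, Atf3 at 371 against 499 CPM and Gap43 at 1091 against 1551 CPM. Sprr1a-high cells (50 CPM or more) numbered 9 in the first and 15 in the second library, of 24 each. With 1 library each there is no test, and the intervals are exact Poisson 95% intervals that cover counting error only. Ntrk2 was at 26.2 CPM (23.0 to 29.7) in the library labelled as mostly directly injured and at 2.83 CPM (1.87 to 4.12) in the other. Ntrk3 was at 108.9 CPM (102.3 to 115.7) against 32.8 CPM (29.2 to 36.6). Gfra3 ran the other way, at 315 CPM (304 to 327) against 487 CPM (474 to 502). Ret was at 111 CPM (104 to 118) against 165 CPM (157 to 173), Gfra2 at 16.1 CPM (13.6 to 18.8) against 30.7 CPM (27.2 to 34.4) and Ngfr at 340 CPM (328 to 352) against 271 CPM (260 to 281). The share of NF-like neurons was 41.7% in the first and 12.5% in the second of these libraries, and labelled injury state, injury gene level and neuron type cannot be told apart in the pair, so no direction with injury is read from it.

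Sprr1a, an injury-induced gene of growing sensory axons, was used to split the neurons of each SNC sample into Sprr1a-high cells (50 CPM or more) and Sprr1a-low cells (under 10 CPM). Of the receptors, Gfra3 was higher and Ngfr lower in Sprr1a-high neurons. The fit used 587 neurons from 11 SNC samples with at least 3 cells of each class, summed per sample and class, with the sample as a block. It called 4034 of 11754 genes (34.3%, with 17.2% higher and 17.1% lower), and 2 of 6 receptors passed, a share close to that of all genes. Of the injury genes, Sprr1a was fixed by the choice of classes, and the 5 others passed, each higher in the high class.

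Gfra3 in Sprr1a-high neurons was at 323 CPM in the lowest, 484 CPM in the median and 565 CPM in the highest sample. In Sprr1a-low neurons the values were 164, 339 and 547 CPM. The classes overlapped, but Gfra3 was higher in the high class in 9 of 11 samples, which 19.5% of all genes reached. Its log2 fold change was 0.52 (SE 0.14, adjusted p = 0.010, edgeR).

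Ngfr in Sprr1a-high neurons was at 228 CPM in the lowest, 291 CPM in the median and 381 CPM in the highest sample. The Sprr1a-low values were 282, 371 and 417 CPM. Here too the classes overlapped, and Ngfr was lower in the high class in 10 of 11 samples, which 14.1% of all genes reached. Its log2 fold change was −0.30 (SE 0.07, adjusted p = 0.0044, edgeR).

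The other receptors did not pass in this fit. Ret had a log2 difference of −0.15 (SE 0.12, adjusted p = 0.36), Ntrk2 of 0.54 (SE 0.50, adjusted p = 0.43), Ntrk3 of 0.20 (SE 0.18, adjusted p = 0.42) and Gfra2 of −0.28 (SE 0.37, adjusted p = 0.59). The Sprr1a classes differed in neuron type. NP-like neurons made up 0.48% of 417 Sprr1a-high and 13.3% of 188 Sprr1a-low cells, and SST-like neurons 8.15% and 22.9%. The unnamed cluster with Anxa1 among its leading genes made up 30.0% and 7.45%, and it was among the highest clusters in Gfra3 (669.0 CPM) and among the lowest in Ngfr (158.5 CPM). The part of these type differences in the Gfra3 and Ngfr values was not tested. The median summed glial level per cell was 1507 CPM in the high and 1251 CPM in the low class, and its part in these differences was not tested. In PEP-like neurons alone Gfra3 no longer passed (0.16, adjusted p = 0.19), while Ngfr (−0.57, adjusted p = 0.00053) and Ret (−0.71, adjusted p = 0.00055) did, among 18.0% of genes called. Sprr1a-high and Sprr1a-low PEP-like cells came mostly from different clusters (145 of 154 PEP1-like against 55 of 58 PEP3-like). Without NF-like neurons Ret was lower in the high class by a log2 difference of −0.67 (adjusted p = 1.8e-06), among 37.7% of genes called. In the 3 labelled sham samples with both classes, a fit chosen after seeing the data, Ret differed by −0.83 (adjusted p = 0.022), Gfra3 by 0.65 (adjusted p = 0.22) and Ngfr by −0.55 (adjusted p = 0.067), with 5.93% of genes called.

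**Figure D4:**
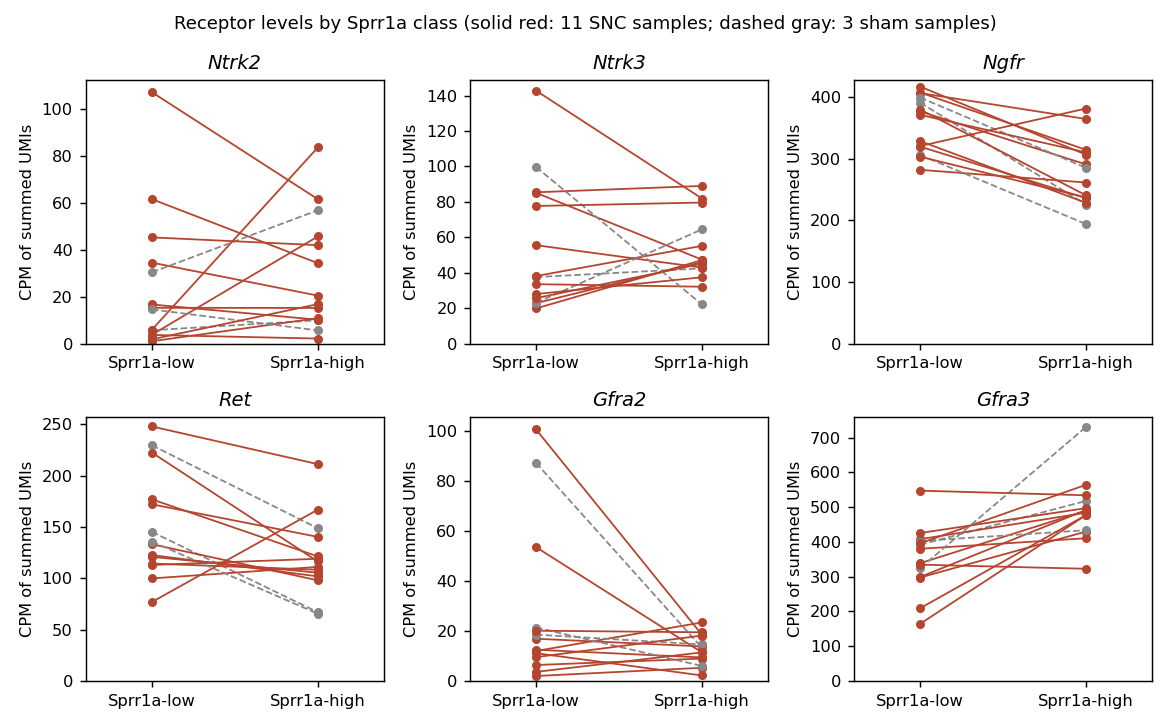
CPM of each receptor gene (y axis, linear) in the summed Sprr1a-low and Sprr1a-high neurons (x axis) of each sample, with a line joining the classes of one sample (solid red for 11 SNC samples, dashed gray for 3 labelled sham samples). Gfra3 rose in 9 of 11 SNC samples and Ngfr fell in 10 of 11, while the Ntrk2, Ntrk3 and Gfra2 lines crossed.

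Within NF-like neurons both Ret and Gfra3 were higher in Sprr1a-high cells. This comparison was chosen after seeing the data and used 73 neurons from 6 SNC samples. Ret in the Sprr1a-high NF-like neurons was at 113 CPM in the lowest, 144 CPM in the median and 232 CPM in the highest sample. In the Sprr1a-low NF-like neurons it was at 28.5, 62.0 and 96.3 CPM. The classes did not overlap, which held for 1.56% of all genes in this direction. The log2 fold change of Ret was 1.33 (SE 0.24, adjusted p = 0.012, edgeR), in a fit that called 4.38% of genes (2.97% higher and 1.4% lower), and Ret was higher in 6 of 6 samples, as were 7.56% of all genes.

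Gfra3 in the Sprr1a-high NF-like neurons was at 120 CPM in the lowest, 159 CPM in the median and 244 CPM in the highest sample. The Sprr1a-low values were 29.1, 59.5 and 107 CPM. They did not overlap either, and the log2 fold change of Gfra3 was 1.56 (SE 0.32, adjusted p = 0.021, edgeR), with the high class higher in 6 of 6 samples. The only labelled sham sample with enough NF-like cells of both classes, sample 18, held 168 against 49.0 CPM of Ret and 220 against 116 CPM of Gfra3. Both NF-like clusters held cells of both classes. In the pooled SNC cells of the Shox2 and Pvalb cluster Ret was at 213 CPM in 35 Sprr1a-high and 74.2 CPM in 15 Sprr1a-low neurons, and in the Nppa cluster it was at 126 CPM in 38 and 70.5 CPM in 20 neurons. Ngfr (−0.35, adjusted p = 0.20), Ntrk2 (−0.27), Ntrk3 (0.62) and Gfra2 (0.76) did not pass. The calls rest on few cells. Without sample 8 the adjusted p of Ret was 0.0503, and without samples 13 and 17-3, each left out in turn, that of Gfra3 was 0.062 and 0.076.

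The difference between NF-like and PEP-like neurons in the Sprr1a effect was itself tested, also after seeing the data, in 249 neurons from 13 pairs of a sample and a type. These came from 9 samples, so some samples entered with both types as separate blocks. PEP-like Ret was at 35.9, 76.2 and 86.7 CPM (lowest, median and highest of 7 samples) in Sprr1a-high and at 71.9, 106 and 151 CPM in Sprr1a-low cells, and it was lower in the high class in 6 of 7 samples. The Ret effect was larger in NF-like than in PEP-like neurons by 2.02 on the log2 scale (SE 0.27, adjusted p = 0.0020, edgeR), in a fit that called 0.483% of 9948 genes. When single samples were left out the value stayed between 1.79 and 2.20 and passed in every fit. Gfra3 differed by 1.39 (SE 0.31, adjusted p = 0.049), and this call was lost in 8 of 9 fits with a sample left out. Most PEP-like neurons of the 2 classes came from different clusters: 145 of 154 Sprr1a-high cells were in the PEP1-like and 55 of 58 Sprr1a-low cells in the PEP3-like cluster. In the pooled SNC cells of the PEP3-like cluster Ret was at 129 CPM in 9 Sprr1a-high and 136 CPM in 55 Sprr1a-low neurons. In the PEP1-like cluster it was at 79.8 CPM in 145 Sprr1a-high and 48.9 CPM in 3 Sprr1a-low neurons. The smaller classes held only 9 and 3 cells, and a difference within a cluster was not tested. Sprr1a class and cluster cannot be told apart in PEP-like neurons.

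**Figure D5:**
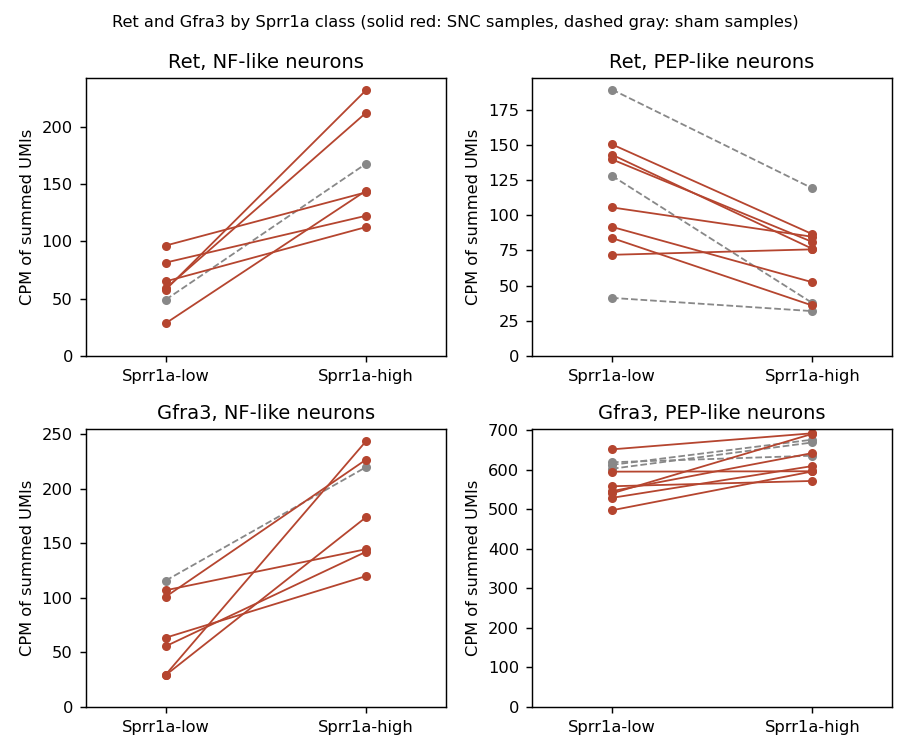
CPM of Ret (top) and Gfra3 (bottom) on linear y axes in Sprr1a-low and Sprr1a-high sums of each sample, for NF-like (left) and PEP-like (right) neurons, with solid red lines for SNC and dashed gray lines for labelled sham samples. Ret rose in 6 of 6 SNC samples in NF-like neurons and was lower in 6 of 7 in PEP-like neurons, whose classes came mostly from different clusters.

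The added sham samples were set beside the labelled sham samples. Dye labelling, library series, time after surgery and the mix of neuron types differ between them as a whole and cannot be told apart. NP-like neurons numbered 19 of 215 labelled sham and 76 of 503 added neurons. A further 58 (Cav1) and 17 (Cd7) added neurons lay in the other clusters positive for Gfra2 in every cell. The part of this mix in the receptor values was not tested. Gfra3 was lower and Gfra2 and Ret were higher in the added samples. The fit of 7 against 4 samples called 6415 of 15791 genes (40.6%, of which 24.2% were higher and 16.5% lower in the added samples, in percent of all genes), and 3 of 6 receptors passed. The median log2 fold change of all genes was 0.15 with the main scaling and 0.09 with DESeq2's size factors, and the receptor values below are not corrected for it.

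Gfra3 was at 89.6 CPM in the lowest, 124 CPM in the median and 176 CPM in the highest added sample, against 392 to 699 CPM in labelled sham. The groups did not overlap, as for 7.72% of all genes in this direction. Gfra3 differed by −2.04 on the log2 scale (SE 0.22, adjusted p = 6.9e-05, edgeR). The difference was −3.05 in NF-like neurons alone (adjusted p = 0.00054), −2.30 in PEP-like neurons alone (adjusted p = 0.00045) and −1.66 against the Sprr1a-low labelled sham neurons (adjusted p = 0.0012), comparisons chosen after seeing the data that called 34.6%, 32.4% and 30.4% of genes. The classes hold different clusters in the 2 sets: the labelled NF-like class joins the Shox2 and the Nppa clusters, the added NF-like class is a single cluster led by Shox2, and S100a16 and Kcnv1, which lead the labelled Nppa cluster, are among the leading genes of the added PEP-like cluster.

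Gfra2 was at 55.4 CPM in the lowest, 121 CPM in the median and 296 CPM in the highest added sample, against 15.6, 15.9, 24.5 and 35.2 CPM in the labelled sham samples. The groups did not overlap, as for 19.9% of all genes in this direction. Its log2 fold change was 2.69 (SE 0.51, adjusted p = 0.0012, edgeR), and 1.82 (adjusted p = 0.051) against Sprr1a-low labelled sham neurons. Ret was at 176, 352 and 636 CPM (lowest, median and highest added sample), against 96.8 to 196 CPM in labelled sham, where the lowest added sample lay below the highest labelled one. Its log2 fold change was 1.45 (SE 0.34, adjusted p = 0.0045, edgeR), and it no longer passed against Sprr1a-low labelled sham neurons (1.03, adjusted p = 0.053) or within NF-like neurons (0.54, adjusted p = 0.077). In PEP-like neurons alone neither Gfra2 nor Ret passed.

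Ngfr (0.57, SE 0.32, adjusted p = 0.17), Ntrk2 (1.33, SE 0.90, adjusted p = 0.26) and Ntrk3 (0.17, SE 0.66, adjusted p = 0.85) did not pass. Samples S1 and S2, both taken at 0 days, stood apart from the other added samples. They held 1.57 and 1.96 CPM of Ntrk2, 7.00 and 8.41 CPM of Ntrk3, and the highest Ret and Gfra2 levels, and they held 0% NF-like and 0% and 6.52% PEP-like neurons. Without them, a fit chosen after seeing the data that called 42.7% of genes, Ntrk2 (1.74, adjusted p = 0.0021) and Ngfr (0.79, adjusted p = 0.011) passed, and Gfra2 (1.99, adjusted p = 0.00073), Ret (1.03, adjusted p = 0.0083) and Gfra3 (−2.23, adjusted p = 0.00017) still did. Within NF-like neurons, also a fit chosen after seeing the data, Ntrk2 passed with 2.03 (adjusted p = 0.011) and Ntrk3 with 0.78 (adjusted p = 0.023), with the difference in clusters given above. The labelled Nppa cluster was low in Ntrk2 (16.5 CPM) and has no NF-like counterpart among the added clusters, and its part in these values was not tested.

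Ligands and signalling partners of the receptors were read from a list of 39 genes. Bdnf, the ligand of TrkB, was at 247.4 ± 63.8 CPM (SD, n = 16) in labelled and 205.6 ± 58.8 CPM (SD, n = 7) in added samples. Nrtn, the ligand of the Gfra2 product, was at 5.45 ± 2.14 and 2.20 ± 0.87 CPM. Gdnf, Ntf3, Ntf4, Artn and Pspn had means of at most 1.30 CPM in both sets.

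Of 31 list genes tested at each time after SNC, 0 passed in edgeR, with 6, 0 and 3 at an unadjusted p under 0.05 and 0 called by DESeq2. In the Sprr1a comparison 28 were tested and 10 passed, 5 in each direction, a share of the list close to the 34.3% of all genes. Dusp6, a phosphatase that dampens ERK signalling, was higher in Sprr1a-high neurons by 1.39 (SE 0.23, adjusted p = 0.00026, edgeR), and Ncam1, a neural adhesion molecule that can bind GDNF, by 1.16 (SE 0.12, adjusted p = 4.2e-06). Spry4, an inhibitor of receptor tyrosine kinase signalling, was lower with −1.42 (SE 0.29, adjusted p = 0.0015). The adaptor genes Shc1 (−0.96) and Dok4 (−0.96) and the transcription factor gene Etv5 (−0.76) also passed, each lower. Spry2, of the same Sprouty family as Spry4, was higher by 0.75 (adjusted p = 0.035), as were Dok6 (0.63) and Maged1 (0.40), all 3 named after their values were seen. Bdnf itself was lower in Sprr1a-high neurons by −0.74 (SE 0.15, adjusted p = 0.0016). The median over the 28 genes was 0.01, as over all genes. In NF-like neurons 2 of 23 list genes passed, beside 4.38% of all genes, Dusp6 with 2.61 (SE 0.41, adjusted p = 0.0074) and Shc1 with −0.74 (SE 0.17, adjusted p = 0.036). The Sprr1a effect on Bdnf was larger in NF-like than in PEP-like neurons by 1.90 (SE 0.35, adjusted p = 0.014), and that on Dok5, another adaptor gene, differed by −2.36 (SE 0.42, adjusted p = 0.012).

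Between added and labelled sham 23 of 36 list genes passed, 15 higher and 8 lower in the added samples, beside 40.6% of all genes (24.2% higher and 16.5% lower), with a median of 0.92 over the list and 0.15 over all genes. The Sprouty genes Spry4 (2.99) and Spry2 (2.29), which encode feedback inhibitors of receptor tyrosine kinases, were higher. Spry1, of the same family, was higher by 3.39, but at low levels (means of 0.85 CPM in labelled and 3.31 CPM in added samples). Etv4, a transcription factor gene induced by growth factor receptors, passed at levels near the limit of detection (means of 0.24 CPM in labelled and 0.87 CPM in added samples), so no fold change is given. Nradd, a relative of the p75 gene, was lower by −2.09 (SE 0.56, adjusted p = 0.0099).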

How the data were processed

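Single DRG neurons were sequenced with UMIs at the 3′ end of the transcripts. The authors deposited raw UMI counts per gene and cell, one table for each of 24 libraries. The submitters' processing notes name STAR, featureCounts (Subread), UMI-tools, SAMtools and the Rnor_6.0 build. No deposited column was left out apart from cells failing the filters (at least 500 genes, at least 1000 UMIs, under 5% mitochondrial UMIs).

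Counts were summed per DRG sample, and libraries S-2 and S-3 were summed as 1 sample. Precision was set by the summed counts, 4002503 to 40732975 UMIs per sample. Sums were tested with edgeR 4.0.16 (quasi-likelihood, TMM scaling, filterByExpr, adjusted p under 0.05), with SE taken as the log2 fold change over the root of F. CPM are unscaled by TMM. Sprr1a classes needed at least 3 cells each per sample. In that comparison the classes come from the same samples, so the sample was the block; groups of the other comparisons hold different samples. Alternatives were DESeq2 1.42.0, its size factors, no filter, limma 3.58.1 on cell means, thinning to 20000 UMIs, year of reverse transcription (from the study's methods), other Sprr1a limits, neuron types, and each sample left out. Cells were clustered with Seurat 5.3.0 (R 4.3.3) on 2000 variable genes without the receptors, 40 components and resolution 0.5, and named from fixed markers. No doublet caller was run, because cells were picked by hand. Other scripts used Python 3.11.15, NumPy 2.4.6, pandas 2.3.3, SciPy 1.17.1 and matplotlib 3.10.9.

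The receptor genes, marker lists and the list of 39 partner genes were chosen with earlier results of these data known. Named genes are the receptors, the ligands, up to 6 list genes called in a comparison by size of change, the 3 genes most like each receptor (among genes at 20 CPM or more in at least 5% of cells) and 6 injury genes. A few genes that the rule would name are not reported here. The cluster-leading genes and the interaction were named or chosen after seeing the data. On simulated counts with 200 genes changed by a log2 value of 2, the steps recovered 79.5%, 68% and 80% for SNC at 1, 3 and 7 days (14239 genes), 97.5% for the Sprr1a classes (11754 genes) and 68.5% for added against labelled sham (15791 genes).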

Additional observations from a re-analysis of the deposited data

Results flagged for a closer look

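The Sprr1a-high minus Sprr1a-low effect differed between NF-like and PEP-like neurons for 2 receptor genes by a test of the difference itself in edgeR, with 0.483% of genes called. Ret differed by 2.02 on the log2 scale (SE 0.27, adjusted p = 0.0020), with the high class higher in 6 of 6 NF-like and lower in 6 of 7 PEP-like samples. Gfra3 differed by 1.39 (SE 0.31, adjusted p = 0.049), with the high class higher in 6 of 6 NF-like and 7 of 7 PEP-like samples. Both tests, and the fit that follows, were chosen after seeing the data. Without the tenth of neurons highest in glial genes the values were 2.04 (adjusted p = 0.0016) and 1.38 (adjusted p = 0.057). Sprr1a-high and Sprr1a-low PEP-like neurons came mostly from different clusters, so that class and cluster cannot be told apart there. Within the PEP3-like cluster Ret was at 129 CPM in 9 high and 136 CPM in 55 low cells. Within the PEP1-like cluster it was at 79.8 CPM in 145 high and 48.9 CPM in 3 low cells. Of 24 groups of receptor levels by sample, 0 had a sample apart from the others by Dixon's test.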

How the results depend on the processing

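The samples per group, 3 to 7, and the sums of a few cells per class limit what these comparisons can show, and the positive calls in NF-like neurons rest on 73 neurons. Values are log2 fold changes, and the cause of each change was not tested.

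In the comparisons of SNC with labelled sham no receptor gene passed under any alternative that was run. The number of genes called was 17 with DESeq2 and 1 with the year term at 1 day, and at 3 days it was 1 each with DESeq2, without the filter, after thinning, with the year term, with limma and in PEP-like neurons. Signs turned at 1 day for Ntrk2 in PEP-like neurons (−0.45), for Ntrk3 with the year term (−0.015), with pairs of one preparation merged (−0.051) and in NF-like neurons (−0.17), and for Gfra2 after thinning (0.39), with limma (0.094), in NF-like (0.74) and in PEP-like neurons (0.017). At 3 days they turned for Ntrk2 with limma (−0.015) and in PEP-like neurons (−0.58), for Ngfr with the year term (−0.061) and in PEP-like neurons (−0.12), for Ret with the year term (−0.15), and for Gfra2 after thinning (0.51), with limma (0.13), in NF-like (0.79) and in PEP-like neurons (0.25). At 7 days they turned for Ntrk2 with limma (−0.054) and in PEP-like neurons (−1.85), for Ntrk3 within the earlier year (−0.00097) and in NF-like neurons (−0.23), for Ngfr after thinning (−0.032), in NF-like (−0.00065) and in PEP-like neurons (−0.17), for Ret within the earlier year (0.19) and in NF-like neurons (0.38), for Gfra2 with limma (0.04), in NF-like (0.74) and in PEP-like neurons (0.95), and for Gfra3 in NF-like neurons (0.060).

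With each sample left out in turn, Ntrk3 ranged from −0.24 to 0.41 at 1 day, from −0.21 to 0.47 at 3 days and from −0.065 to 0.59 at 7 days. Ngfr ranged from −0.021 to 0.33 at 3 days and from −0.14 to 0.21 at 7 days, Ret from −0.018 to 0.37 and from −0.15 to 0.24, Gfra2 from −1.24 to 0.34 at 3 days and Gfra3 from −0.36 to 0.036 at 7 days. The number of genes called at 3 days ranged from 0 to 1, the latter without sample 17-3.

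In the Sprr1a comparison the calls of Gfra3 and Ngfr held with each sample left out. Without the replicate block 2708 genes were called, Gfra3 (0.46, adjusted p = 0.027) and Ngfr (−0.29, adjusted p = 0.025) still passed, and Ntrk3 was −0.0050. One limit at 20 CPM brought Ret past the threshold (−0.22, adjusted p = 0.045). Counts were 1659 after thinning, 1764 in PEP-like neurons and, in fits chosen after seeing the data, 714 in labelled sham and 452 in NF-like neurons. Signs turned for Ntrk3 after thinning (−0.059), in PEP-like neurons (−0.69) and without NF-like neurons (−0.25), and in NF-like neurons for Ntrk2 (−0.27), Ret (1.33) and Gfra2 (0.76). Ntrk2 in PEP-like neurons, and Ntrk2 and Gfra2 after thinning, could not be fitted because the filter removed them.

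The fits of NF-like neurons and of the difference between types were all chosen after seeing the data. For NF-like neurons the count was 732 with sham added and 279 without the replicate block, in which Ret (1.296) and Gfra3 (1.46) passed. With each sample left out it ranged from 171 to 434, with 171 without sample 13, 206 without 17-3 and 256 without 8, and Ntrk2 ranged from −0.72 to 0.014. For the difference between types the count ranged from 14 to 62 and Ntrk2 from −1.19 to 0.15.

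Between added and labelled sham 3894 genes were called in PEP-like neurons, a fit chosen after seeing the data, where Gfra2 (1.04, adjusted p = 0.18) and Ret (0.55, adjusted p = 0.41) did not pass. Ntrk3 was −0.12 with limma and from −0.23 to 0.47 with each sample left out, and the calls of Gfra3, Gfra2 and Ret held with each sample left out. Of 10 overlaps of receptors in single cells, 9 after thinning, 9 at 10 CPM and 7 at 50 CPM moved by less than the spread over samples.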
